A study of Mus musculus with 4 samples.

Results

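Il4ra and Il5ra encode the ligand-binding alpha chains of the receptors for interleukin 4 and interleukin 5. Probe sets were taken as members where the platform annotation gave Il4ra or Il5ra as their only gene symbol. This gave 3 of the 10861 probe sets, 2 for Il4ra and 1 for Il5ra, and 2 of the 6404 genes with a symbol of their own. The pair was chosen by its measured differences between the mutants and with SCF on these same arrays, so the values of both genes are given as descriptions, with no test.

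The RNA came from EML cells, a mouse lymphohematopoietic progenitor line. All 4 cultures carried a KIT mutant brought in with the retroviral vector pLXSN, had been selected with geneticin and then for growth without added factor, and had been sorted for KIT expression, per the labels' protocols. The mutant was Del417-419insY, in the extracellular domain of the receptor tyrosine kinase KIT, or D816V, in its phosphotransferase domain. Mutations of both domains are known from mastocytosis, in which mast cells accumulate in tissues. Each line was profiled without and with stem cell factor (SCF, the KIT ligand) at 250 ng/mL for 48 h, which gave 4 groups of 1 Affymetrix array each. There is therefore no replicate for any value, the labels name no repeat culture or repeat population, and no source used here gives the culture time without SCF. Cells without a transduced KIT were not analysed here.

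The interleukin 4 receptor alpha chain pairs with the common gamma chain (Il2rg) to bind interleukin 4, or with Il13ra1 to bind interleukin 4 and interleukin 13; it signals through JAK kinases and chiefly STAT6. The interleukin 5 receptor alpha chain pairs with the common beta chain (Csf2rb), which the receptors for interleukin 3 and GM-CSF share, and signals through JAK2 and STAT5. Among blood cells Il4ra is widely expressed, while Il5ra is best known from eosinophils, basophils and B-1 cells and their progenitors. KIT itself also activates STAT5 and the PI3K pathway.

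The windows of 250 bases upstream of the RefSeq start sites (assembly GRCm38.p6) are shown because both genes differed between the lines in opposite directions. Capitals mark matches, on either strand, to 7 short motifs: TTCNNNGAA (STAT5), the same letters with 4 in place of 3 free bases between them (STAT6), GATAA (GATA factors), TTNNGNAA (C/EBP), GAGGAA (PU.1), ATGCAAAT (the octamer of POU factors) and TGNGGT (RUNX). The Il4ra window is chr7:125552021-125552270 on the plus strand and the Il5ra window is chr6:106749038-106749287 on the minus strand, both written 5' to 3' as the gene is read.
Il4ra: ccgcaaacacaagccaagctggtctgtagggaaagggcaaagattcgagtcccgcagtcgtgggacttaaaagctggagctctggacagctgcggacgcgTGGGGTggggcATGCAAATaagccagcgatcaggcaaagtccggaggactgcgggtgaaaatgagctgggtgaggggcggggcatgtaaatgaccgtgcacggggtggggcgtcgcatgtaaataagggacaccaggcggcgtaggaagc
Il5ra: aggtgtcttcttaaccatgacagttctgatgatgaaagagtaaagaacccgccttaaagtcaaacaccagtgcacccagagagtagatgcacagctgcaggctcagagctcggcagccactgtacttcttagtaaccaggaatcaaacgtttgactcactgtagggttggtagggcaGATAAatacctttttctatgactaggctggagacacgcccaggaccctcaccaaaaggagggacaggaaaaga
The Il4ra window held 1 octamer, starting 139 bases before the start site, and 1 RUNX match, starting 150 bases before it; these do not overlap. The octamer was found in 1.6% of the 32851 promoter windows of this length in the RefSeq table and the RUNX letters in 40.1%. The Il5ra window held 1 GATAA match, 73 bases before the start site, a motif found in 22.6% of windows. The STAT5 letters (7.02% of windows) and the STAT6 letters (5.85%) were in neither window, nor were those for C/EBP (36.8%) and PU.1 (23.3%), which says only that these letters are not in these 250 bases. The Il4ra window was richer in G and C (59.6%) than the Il5ra window (48%), against a median of 52.4% over all windows.

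The deposited values are taken as log2 levels, each probe set being set against its own unstated level. They can be compared between arrays for 1 gene, but neither between genes nor as absolute levels. Array medians ran from -0.20 to -0.02, lowest on the D816V array with SCF, which also had the widest spread over probe sets (SD 0.79, against 0.59 to 0.72 on the others). Of the progenitor markers listed for EML cells (Kit, Cd34, Ly6a, Gata2, Runx1, Tal1, Lmo2, Myb, Meis1 and Flt3) 5 of 10 were measured, and relative values do not show whether any of them was expressed.

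Il4ra was about 5-fold higher in D816V cells. Its relative level, the mean of both probe sets, was -0.93 in Del417-419insY cells without SCF and -0.83 with SCF, against 1.37 and 1.56 in D816V cells (log2). Both D816V arrays lay above both Del417-419insY arrays, with a gap of 2.20 between the nearest of them. D816V minus Del417-419insY was 2.30 without SCF, or 4.93-fold, and 2.39 with SCF, or 5.24-fold. By its mean difference, 2.35, Il4ra stood at rank 130 of 6404 genes among those higher in D816V cells. A difference of 2-fold or more was found upward in 6.29% of all genes without SCF, in 6.34% with SCF and in 5.15% in both conditions, and one of 4-fold or more in both in 2.34%.

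Each Il4ra probe set separated the lines on its own. Probe set 1421034_a_at read -0.81 and -1.02 in Del417-419insY cells without and with SCF and 1.40 and 1.75 in D816V cells. Probe set 1423996_a_at read -1.04 and -0.63, and 1.34 and 1.38. Both were low in Del417-419insY and high in D816V cells, with no overlap. The genotype difference without SCF was 2.22 by 1421034_a_at and 2.39 by 1423996_a_at, a gap of 0.17, near the median gap of 0.16 over the 1479 genes with 2 probe sets. With SCF the difference was 2.77 by 1421034_a_at and 2.02 by 1423996_a_at, a gap of 0.75, and 90.6% of those genes had a smaller one.

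Il5ra was about 4-fold lower in D816V cells. Its only probe set, 1421620_at, read -0.07 in Del417-419insY cells without SCF and -0.27 with SCF, and -2.10 and -2.31 in D816V cells. Both D816V arrays lay below both Del417-419insY arrays, with a gap of 1.83 between the nearest of them. D816V minus Del417-419insY was -2.03 without SCF, a 4.07-fold lower level, and -2.04 with SCF, 4.13-fold lower. By its mean difference of -2.04, Il5ra stood at rank 59 among genes lower in D816V cells. A difference of 2-fold or more was found downward in 4.18% of all genes without SCF, in 7.42% with SCF and in 3.78% in both conditions, and one of 4-fold or more in both in 0.796%. The size with SCF depended on scaling: it was -1.24 after cyclic loess and -1.69 after quantile normalization, still past 2-fold. No other probe set was there to compare, so a fault of 1421620_at would go unseen.

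**Figure D1:**
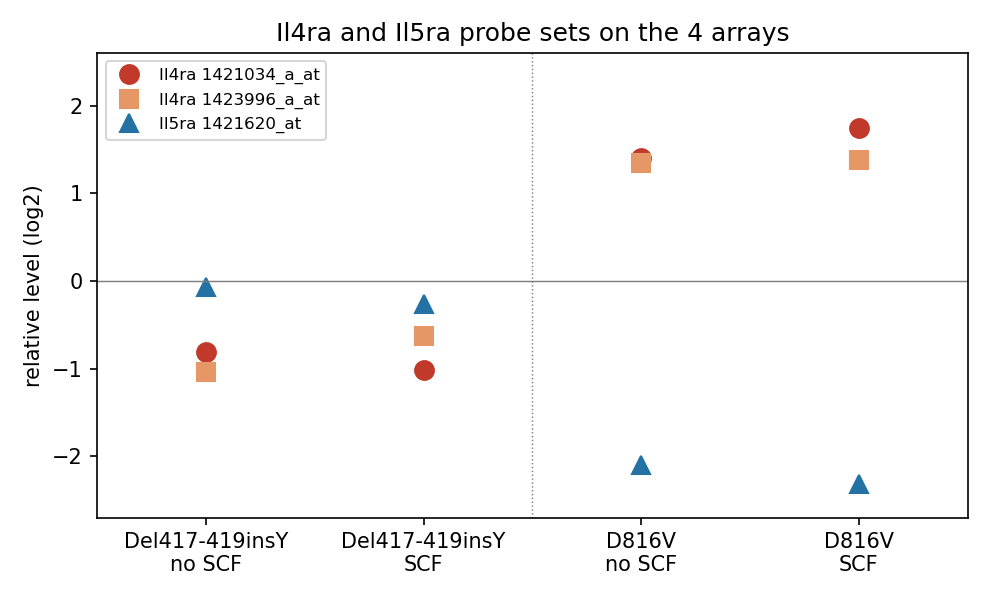
Relative level (log2) of the 3 probe sets on the 4 arrays, 1 point per array and probe set, with no error bars because each group is 1 array. The Il4ra points lie between -1.04 and -0.63 in Del417-419insY cells and between 1.34 and 1.75 in D816V cells, and the Il5ra points at -0.07 and -0.27 against -2.10 and -2.31.

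Differences with added SCF were small beside those between the lines. Il4ra differed by 0.10 with SCF in Del417-419insY and by 0.19 in D816V cells (log2, SCF minus no SCF); 68.4% and 52.8% of all genes had larger differences in size. Its probe sets did not give 1 direction: in Del417-419insY cells 1421034_a_at gave -0.20 and 1423996_a_at 0.41, and in D816V cells they gave 0.34 and 0.039. The gap of 0.61 between them in Del417-419insY cells exceeded the gene's own SCF difference. Il5ra differed by -0.19 in Del417-419insY and by -0.21 in D816V cells, sizes that 44.8% and 48.7% of genes exceeded. In D816V cells the Il5ra value turned to 0.14 after cyclic loess and 0.24 after quantile normalization, so it has no settled direction. Differences with SCF of 2-fold or more made up 0.874% of genes in the Del417-419insY line and 1.64% in the D816V line; neither Il4ra nor Il5ra was among them.

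The gap between the lines changed little with SCF for Il5ra, while the probe sets of Il4ra moved it in opposite directions. The SCF difference in D816V minus that in Del417-419insY was 0.088 for Il4ra and -0.019 for Il5ra, where the median size over all genes was 0.19. The small Il4ra value is the mean of 0.55 by 1421034_a_at and -0.37 by 1423996_a_at, both larger in size than that median. For Il5ra a smaller size was seen in 5.57% of genes. After cyclic loess the genotype difference of Il5ra was -1.67 without and -1.24 with SCF, so its closeness depends on the scaling.

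**Figure D2:**
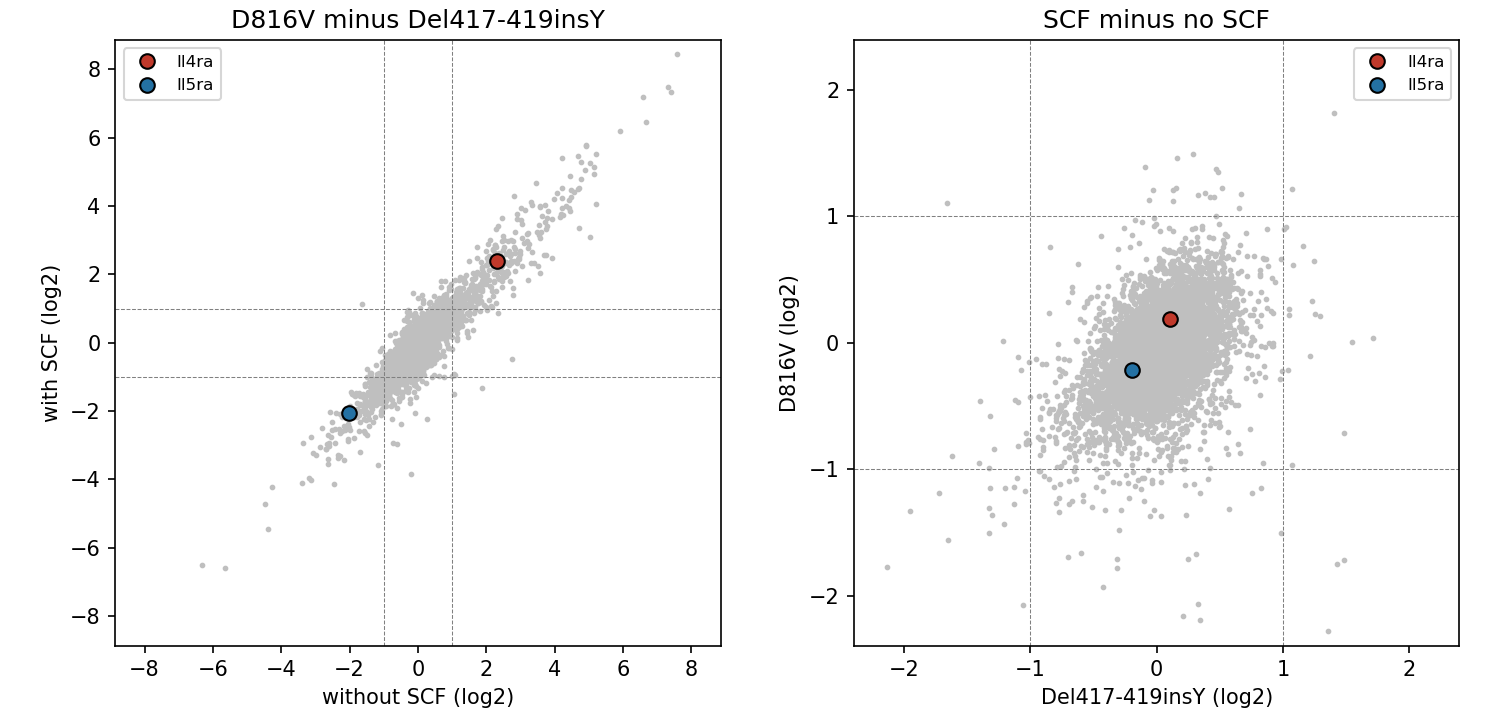
Each grey point is 1 of 6404 genes, and dashed lines mark 2-fold. Left, D816V minus Del417-419insY (log2) without SCF on the x axis and with SCF on the y axis, with Il4ra at 2.30 and 2.39 and Il5ra at -2.03 and -2.04. Right, SCF minus no SCF (log2) in Del417-419insY on the x axis and D816V on the y axis, where both genes lie within the bulk of points.

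Genes other than Il4ra and Il5ra were tested between the lines with limma over all 4 arrays, with genotype and SCF as additive terms. The only residual of this fit is how far the SCF responses of the lines differ, so its p-values cover no repeat culture. It called 42.6% of all genes at a Benjamini-Hochberg adjusted p under 0.05, 17.9% (1147) higher and 24.7% (1579) lower in D816V cells, and a list's count is to be read against that share. The scaling moved that split: cyclic loess turned it to 1628 higher and 1263 lower, quantile normalization to 1526 and 1387, and a centring of each array on its median to 1720 and 1302. The median difference of all genes was -0.08 without and -0.14 with SCF; with SCF, centring moved it by 0.15. After centring Il4ra differed by 2.39 and 2.54, and Il5ra by -1.94 and -1.89.

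Il4ra and Il5ra lay at or next to opposite ends of the 15 measured chains of the type I cytokine receptor family, to which both belong. The pair was chosen by these same differences, so its place in the order is only a description. Of 33 other chains listed 13 were measured, and limma called 5 higher and 4 lower in D816V cells, 69.2% against 42.6% of all genes. The median difference of the 13 chains was 0.23 without and -0.13 with SCF. Il4ra had the highest mean difference of the 15 measured chains, but Ebi3, a soluble subunit of IL-27 and IL-35, was level with it at 2.34, so their order is not resolved; after cyclic loess and quantile normalization Ebi3 was first. Next came Il12rb1, the interleukin 12 receptor beta chain, at 1.64. Il6st (gp130), the signalling chain of the interleukin 6 family, lay at -1.90 beside Il5ra at -2.04, and their order is not resolved either. After cyclic loess the means were -1.31 for Il6st and -1.45 for Il5ra, and with SCF Il6st was at -1.22. On the 4 arrays Il6st read -0.34 and -0.27 in Del417-419insY cells without and with SCF and -2.10 and -2.30 in D816V cells.

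**Figure D3:**
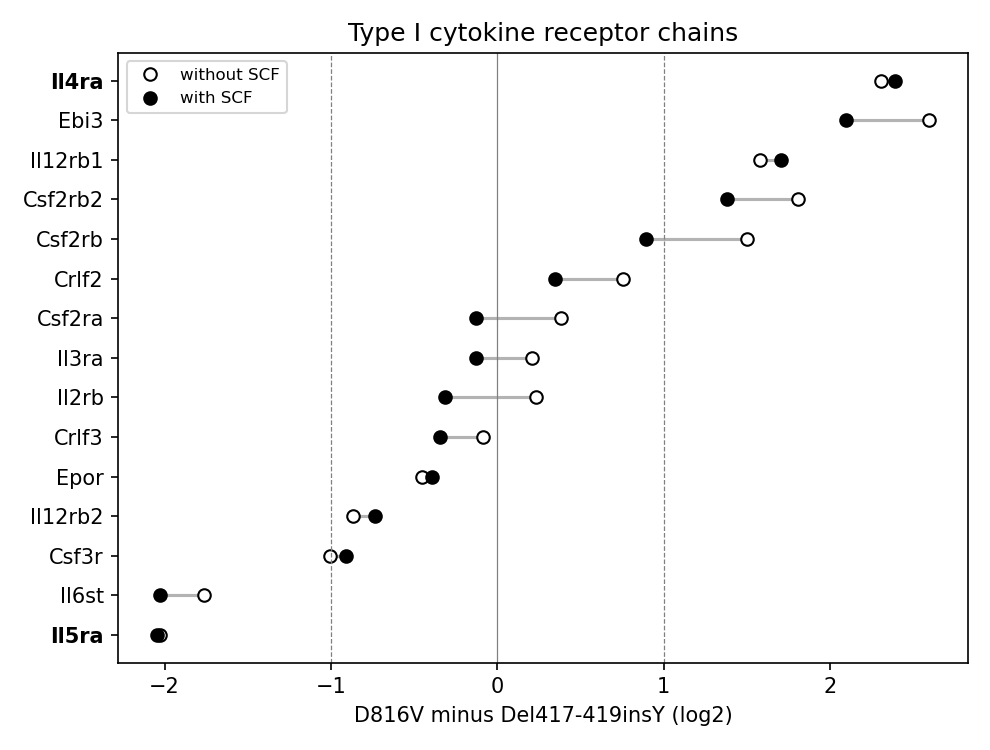
D816V minus Del417-419insY (log2) for the 15 measured type I cytokine receptor chains, open points without and filled points with SCF, ordered by their mean; dashed lines mark 2-fold. Il4ra is at the top and Il5ra at the bottom, with Ebi3 and Il6st next to them.

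The beta chains that complete the interleukin 5 and interleukin 3 receptors were higher in D816V cells, opposite to Il5ra. Csf2rb read -0.60 and -0.43 in Del417-419insY cells without and with SCF and 0.90 and 0.46 in D816V cells. Its mean difference was 1.20 (SE 0.18, limma adjusted p = 0.0073). Csf2rb2, the mouse beta chain that serves interleukin 3 alone, read 0.09 and -0.06 in Del417-419insY and 1.90 and 1.32 in D816V cells, a mean difference of 1.59 (SE 0.15, limma adjusted p = 0.0019). For both genes the D816V arrays lay above the Del417-419insY arrays. Csf2rb and Csf2rb2 are close paralogs; cross-reading of their transcripts was not tested. The alpha chains Il3ra and Csf2ra, of the interleukin 3 and GM-CSF receptors, did not pass, with mean differences of 0.042 and 0.13. The partners of Il4ra, Il2rg, Il13ra1 and Il13ra2, and STAT6 were not analysed here.

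Of the kinases, JAK1 and JAK3 act with the interleukin 4 receptor, JAK2 with the beta chain and TYK2 with the interleukin 13 receptor. Jak2 passed with a small difference of 0.39 (SE 0.11, limma adjusted p = 0.045), but it did not pass after quantile normalization, after cyclic loess or without the SCF term. Jak1 (-0.49), Jak3 (-0.39) and Tyk2 (0.19) did not pass; Jak1 passed, lower, under 5 of the 7 alternatives. Stat5a, a transcription factor activated by the beta chain and by KIT, was lower by its mean of -1.02 (SE 0.21, limma adjusted p = 0.018). Its Del417-419insY arrays read -0.36 and -0.02, above its D816V arrays at -0.98 and -1.43. After cyclic loess its differences of -0.62 without and -1.41 with SCF were -0.37 and -0.86, under 2-fold. Stat5b, its close paralog, was at -0.42 and did not pass. Sdcbp (syntenin), an adaptor that binds the tail of the interleukin 5 receptor alpha chain, was at 0.18 and did not pass, although it passed, higher, after cyclic loess and quantile normalization. Sox4, a transcription factor linked to that receptor through syntenin, was lower, at -1.71 (SE 0.19, limma adjusted p = 0.0030).

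The wider pathways gave mixed counts, to be set beside the 42.6% called over all genes. Among 15 measured of 27 other genes of the interleukin 4 and interleukin 13 pathway 2 were higher and 1 was lower, 20%, with medians of 0.01 without and -0.26 with SCF. The higher genes were Socs1, a feedback inhibitor of JAK kinases, at 2.27, and Pik3cd, a PI3K catalytic subunit, at 1.46; after cyclic loess Socs1 was at 1.47. The lower gene was Grb2, an adaptor protein, at -0.64; it was named because the count is small. Among 23 measured of 31 other genes of the interleukin 5, interleukin 3 and GM-CSF pathway 8 were higher and 6 lower, 60.9%, with medians of 0.21 and -0.13. The feedback genes Cish and Socs2 had mean differences of 4.10 and 3.93, the kinase gene Pim1 2.85 and the survival gene Bcl2l1 1.23. Cyclic loess brought Cish to 2.47 and Socs2 to 2.20. Cish, Socs2, Pim1 and Bcl2l1 are targets of STAT5, which other receptors than these also activate, and their differences were known when the list was written.

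**Figure D4:**
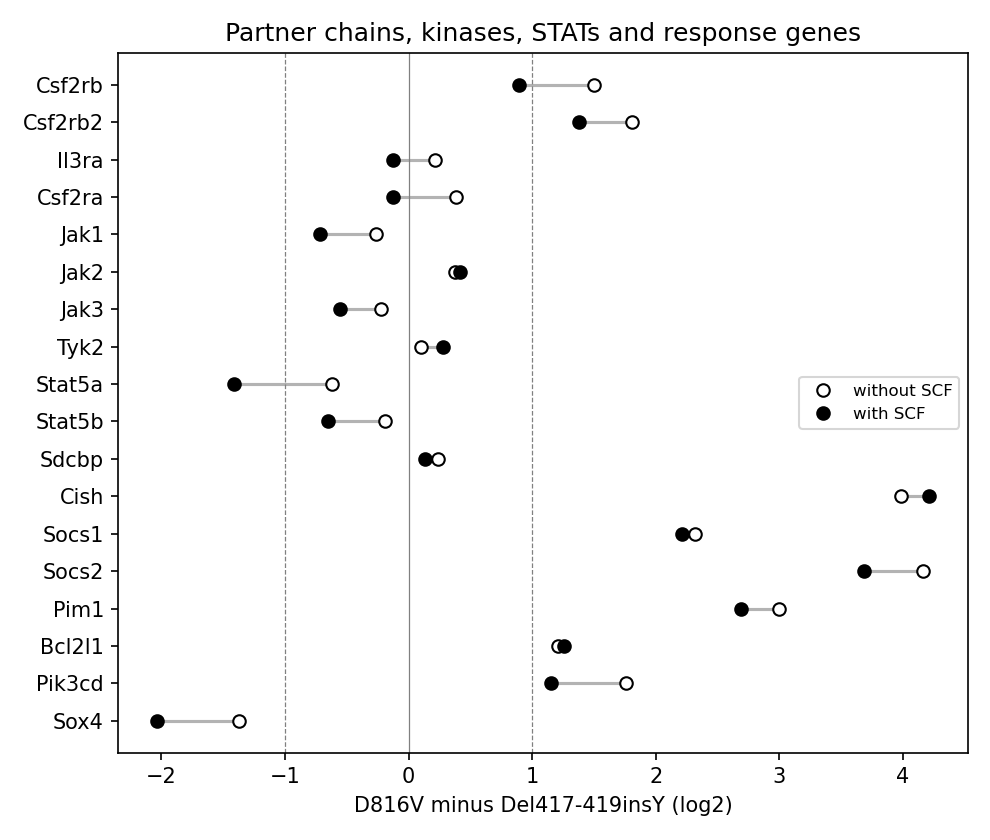
D816V minus Del417-419insY (log2) for 18 partner chains, kinases, STATs and response genes, open points without and filled points with SCF; dashed lines mark 2-fold. Cish and Socs2 lie farthest to the right, Csf2rb and Csf2rb2 to the right of 0, and Stat5a and Sox4 to the left of it.

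Genes known to respond to interleukin 4 or STAT6 were 6 higher and 3 lower of 10 measured, 90%, out of 30 listed. Their medians were 0.78 without and 0.56 with SCF. Besides Cish and Socs1, the lectin receptor gene Clec10a was higher, by 2.87. It read -1.69 and -1.57 in Del417-419insY and 1.04 and 1.45 in D816V cells, so the lines did not overlap. The adhesion receptor gene Cd44 was lower, at -4.60. The most used markers of interleukin 4 action in mouse macrophages, Arg1, Retnla and Chil3, were not analysed here.

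Genes of the eosinophil lineage, in which Il5ra is best known, were 6 higher and 3 lower of 12 measured, 75%, against 42.6% of all genes. The list held 27 genes other than Il5ra, with medians of 0.54 and 0.37. The counts were 4 higher and 1 lower without the SCF term, and 7 and 1 after cyclic loess. Id1 and Id2, inhibitors of basic helix-loop-helix factors, were higher by 2.21 and 1.24. The only eosinophil marker of 8 that was measured besides Il5ra was Siglecf, a surface lectin of eosinophils. It read -1.68 and -1.28 in Del417-419insY and -2.46 and -2.57 in D816V cells, a mean difference of -1.04 (SE 0.16, limma adjusted p = 0.0082). Its differences of -0.79 without and -1.29 with SCF were -0.35 and -0.41 after cyclic loess. The granule genes Epx and Prg2 and the receptor gene Ccr3 were not analysed here.

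Markers of other cell types moved with the lines as well. In such bulk RNA, fewer cells of a type and less RNA per cell cannot be told apart. Over all genes limma called 17.9% higher and 24.7% lower, the shares to set beside each count that follows. Of 10 mast cell markers 7 were measured, and limma called 6 higher and none lower, 85.7%. Their summed relative level was -9.37 and -13.9 in Del417-419insY cells without and with SCF and 9.77 and 1.41 in D816V cells. Cma1, a chymase, was higher by 4.07, Fcer1a, the IgE receptor alpha chain, by 6.06, Mcpt4, a chymase, by 2.04 and Hdc, which makes histamine, by 1.54. Fcer1a was at 3.90 without and 4.11 with SCF after cyclic loess, Hdc at 0.99 with the highest-mean probe set, and Mcpt4 did not pass without the SCF term. Both measured basophil markers of 5, Fcer1a and Mcpt8, a basophil protease, were higher. Their summed level was -1.41 and -2.01 against 6.51 and 5.25. Most of the sum in D816V cells was Fcer1a, also a mast cell marker, at 5.49 without and 5.25 with SCF. Mcpt8 was at 1.01 and 0.007 there, and its difference between the lines was 2 without and 1.06 with SCF. Of the macrophage and monocyte markers 2 of 7 were measured, summing to -1.82 and -2.23 against 0.18 and -0.32; Cd68, a lysosomal protein, was higher by 2.81 and the other, Lyz2, did not pass. Of 5 measured progenitor markers 1 was higher and 3 lower, summing to -1.02 and -1.001 against -2.62 and -4.83, with Kit at -1.42. After cyclic loess the Kit differences of -1.07 without and -1.77 with SCF were -0.68 and -0.94, under 2-fold. All cultures carried a transduced KIT and were sorted for KIT expression. Whether the Kit probe sets also read the transduced transcript was not tested, so Kit is no plain progenitor marker here. No B cell marker (9 listed) and no T or NK cell marker (7 listed) was measured. No level of these markers can be read as 0 on a relative scale, and their part in the differences of Il4ra and Il5ra was not tested.

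A search over all genes gave those whose pattern over the 4 arrays was most like that of each receptor gene. The measure was the root mean square difference over the 4 arrays after each gene was set to its own mean, so it follows the genotype difference that chose the pair and is a description. Nearest to Il4ra were Decr1, a mitochondrial enzyme of fatty acid oxidation (0.037), Socs1 (0.067), Map1lc3a, an autophagosome protein (0.087), Lrp12 (0.087) and Tmbim1 (0.090). Decr1 read -0.003 and 0.10 in Del417-419insY and 2.33 and 2.58 in D816V cells, and Socs1 read 0.094 and 0.34, and 2.41 and 2.55. Nearest to Il5ra were Pald1 (0.037), Asap2, an ARF GTPase-activating protein (0.060), Plac8 (0.073), Ctdspl, a phosphatase (0.078), and Il6st (0.12). Pald1 read 1.56 and 1.26 in Del417-419insY and -0.55 and -0.75 in D816V cells, and Plac8 read 1.40 and 1.12, and -0.77 and -1.04. Within 0.2 of the pattern were 43 genes for Il4ra and 27 for Il5ra. Which genes were nearest depended on the processing. After cyclic loess 1 of the 5 named for Il4ra and 0 of the 5 for Il5ra were still among the nearest 5, and after quantile normalization 1 and 2. With the highest-mean probe set they were 1 and 4. After cyclic loess Decr1 differed by 1.66 without and 1.79 with SCF, against 2.29 and 2.35 for Il4ra, and Pald1 by -2.14 and -2.08, against -1.67 and -1.24 for Il5ra.

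**Figure D5:**
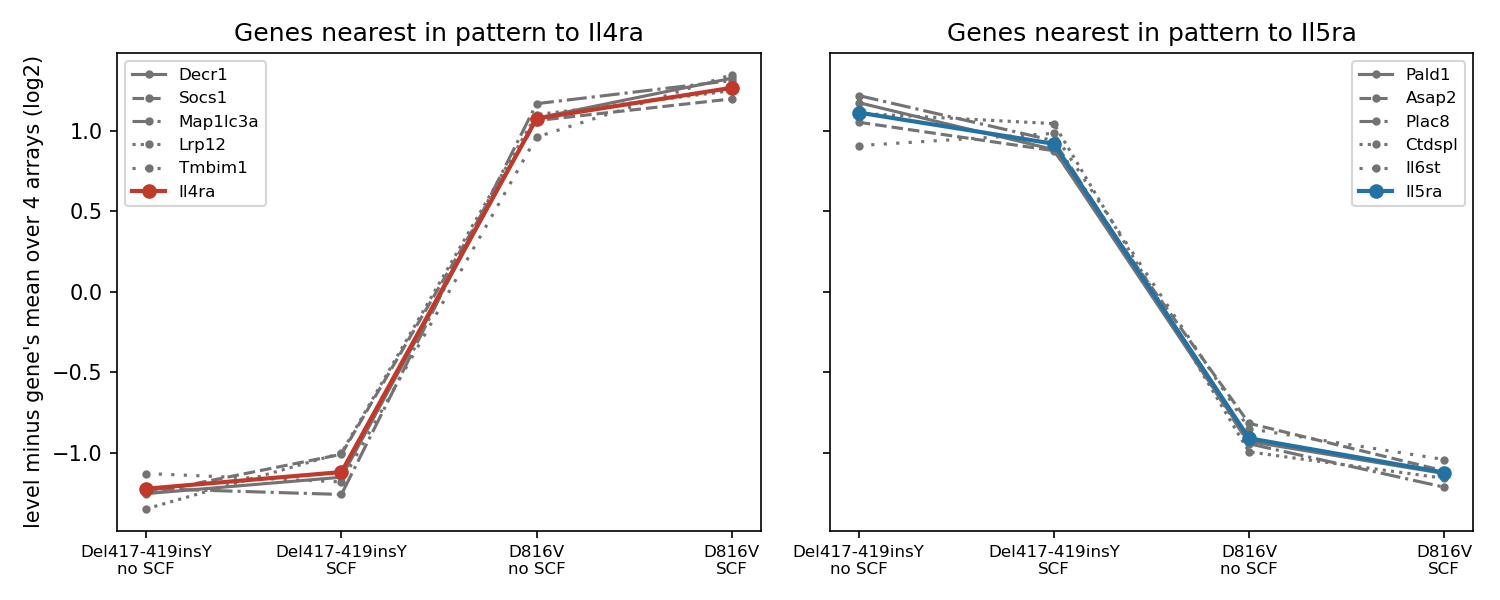
Level minus the gene's mean over the 4 arrays (log2) for Il4ra and Il5ra (coloured) and the 5 genes nearest to each (grey), 1 point per array. All lines step between the mutants and stay nearly level with SCF, in the values as deposited.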

How the data were processed

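The 4 samples were 1 Affymetrix mouse M430 2.0 array each, and arrays have no read depth: their number limits the precision. The authors deposited values from RMA, which the submitters' processing notes name without a version, for 10861 of the 45101 probe sets the design text states, by a filter not given there. These deposited values are taken as log2, since RMA gives log2; neither the base nor the level each probe set was set against is stated, and no brightness or background could be examined. Of the probe sets 9633 had 1 platform symbol, 264 several and 964 none; IDs were checked against RefSeq (GRCm38.p6), and 11 had no match. A gene's value was the mean of its probe sets. Genotype differences subtract Del417-419insY from D816V, SCF differences the array without SCF; 2-fold is a log2 difference of 1. Genes other than the pair were tested with limma 3.58.1 in R 4.3.3 (lmFit, eBayes, ~ genotype + SCF, two-sided, Benjamini-Hochberg over 6404 genes, tested on simulated data). The fit leaves 1 residual degree of freedom; the prior had 4.1 and an SD of 0.127. Alternatives were quantile normalization, cyclic loess, median centring, the probe set with the highest mean, an intensity trend, a 25th percentile filter and no SCF term. The highest mean, the trend and the filter rest on mean relative levels over the 4 arrays. They therefore do not order genes or probe sets by brightness. Cyclic loess likewise fitted its curves against relative levels, not brightness, and moved some genes far. 1500009L16Rik, at 0.91 without and 1.54 with SCF as deposited, became the gene nearest to Il5ra after it. A size after cyclic loess therefore shows dependence on processing and is not a better estimate. Named were all probe sets of the pair, fixed partner chains, kinases and STATs, list genes 2-fold different in both conditions (at most 8 a list; for a marker list without one, the largest mean) and the 5 nearest genes; Grb2 and Lyz2 were named after their values were seen. The pair and all lists were chosen with earlier results of these data known. Promoter windows are RefSeq's; both genes matched. List counts leave out Il4ra and Il5ra.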

Additional observations from a re-analysis of the deposited data

Results flagged for a closer look

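Opposite signs of the SCF difference in the 2 lines picked out the following values; none of these differences between the lines was tested, each rests on 1 array per group, and 34.3% of all 6404 genes had opposite signs. Il4ra probe set 1421034_a_at was at -0.20 in Del417-419insY cells and at 0.34 in D816V cells, whereas 1423996_a_at was positive in both. Csf2rb differed by 0.16 and -0.44. Stat5a differed by 0.34 and -0.46. Stat5b differed by 0.26 and -0.19. These were 3 of the 11 measured partner chains, kinases and STATs.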

How the results depend on the processing

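The genotype differences of Il4ra and Il5ra kept their direction and stayed past 2-fold under quantile normalization, cyclic loess, median centring and the highest-mean probe set, and for Il4ra with each probe set alone, an alternative chosen after seeing the data. Il4ra ranged from 2.22 to 2.39 without and 2.02 to 2.77 with SCF, and Il5ra from -2.12 to -1.67 and -2.04 to -1.24. Their SCF differences stayed under 2-fold, from -0.20 to 0.41 and 0.039 to 0.34 for Il4ra in Del417-419insY and D816V cells, and from -0.28 to -0.16 and -0.21 to 0.24 for Il5ra. Over all genes, those 2-fold lower in both conditions fell from 242 to 114 with the 25th percentile filter, which tests 4803 genes. Those 2-fold higher went from 330 to 253. The filter drops genes by their mean relative level over the 4 arrays, which low D816V values themselves pull down. It thus tends to remove genes lower in D816V cells, and the fall says nothing about how reliable they are. Without the SCF term limma called 690 genes higher and 913 lower, and 5 of the eosinophil lineage list in place of 9. For SCF limma called 0 of 6404 genes, with 1186 at an unadjusted p under 0.05; it called 2 after quantile normalization, 10 with the intensity trend, 42 after cyclic loess, 256 after centring, and again 256 where the highest-mean probe set stood for the gene. The interleukin 4 and interleukin 13 pathway had 5 calls in place of 3 after quantile normalization and cyclic loess. It also had 5 with the highest-mean probe set, with the trend and with the filter, which left 12 of its 15 measured genes. The share called over all genes moved with the setting as well. The filter left 5 of the 10 interleukin 4 response genes, all 5 called higher. As it tends to remove genes lower in D816V cells, that direction is no result about the list. Over the 4803 genes left, limma called 1043 higher and 1232 lower. Of 41 named genes other than the pair 36 kept their limma call under every alternative that measured them; Jak1, Jak2, Stat5b, Sdcbp and Mcpt4 did not. A kept call does not mean a kept size. Cyclic loess, fitted against relative levels, shrank differences of some of the 41 genes by over 1.5 times in at least 1 condition. With a difference past 2-fold these were Cish, Socs1, Socs2, Fcer1a, Kit, Stat5a, Siglecf and Il6st. With both differences under 2-fold they were Jak2, Jak3, Stat5b, Tyk2 and Csf2ra. Beyond what is stated, the cause was not tested. No paired analysis was possible because each group is 1 array and the labels give no replicate numbers. Background correction and slide could not be varied from processed values.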
